A study of Homo sapiens with 9 samples.

Results

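The genes described here are 10 feedback genes of the ERK signalling pathway, DUSP1, DUSP4, DUSP5, DUSP6, SPRY1, SPRY2, SPRY4, ETV4, ETV5 and PHLDA1. Every probe set annotated to exactly 1 of them was taken, which gave 20 probe sets of the 22215 human ones on the array, and 10 of the 11963 genes measured. The genes were selected as a named family with earlier results of these same arrays known, so in effect they were selected on their differences between the 3 groups. Their levels and differences are therefore a description, with no p-value, and where members past the threshold of the fit to all probe sets are counted, that count is a description too. P-values are given only for other genes of the pathway. The lists of those genes were also written with earlier results of these arrays known, so their p-values carry that selection too.

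The arrays profile total RNA of the MDA-MB-231 breast cancer cell line, an established human line, in 3 forms with 3 passages each. The docetaxel-resistant line was grown with 2 nM docetaxel and 1 µM verapamil. The paclitaxel-resistant line was grown with 7 nM paclitaxel and 1 µM verapamil. The sensitive line had 1 µM verapamil alone, so all 9 cultures had this calcium channel blocker, which also inhibits the drug efflux pump P-glycoprotein. Docetaxel and paclitaxel are taxanes, drugs that bind and stabilize microtubules. Each resistance is 1 line, so standard errors and p-values hold the spread between passages and not between separately selected lines. The taxane in the medium and the selected line change together and cannot be told apart. The taxane doses differ, so the comparison of the resistant lines is one of lines as they were grown, not of the compounds at a matched dose. RNA per cell and the mix of cells in a culture cannot be told apart in such bulk samples.

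In the ERK pathway, growth factor receptors load RAS with GTP, and RAS starts a relay of the kinases RAF, MEK and ERK. Active ERK enters the nucleus and switches on genes, among them inhibitors of the pathway, so that the signal limits itself. The dual-specificity phosphatases (DUSP) remove the activating phosphates from ERK and related kinases, the Sprouty proteins (SPRY) block the step between receptor and RAF, and ETV4 and ETV5 are ETS transcription factors of the PEA3 group that ERK induces.

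The label of the cells was checked on their defining markers. The keratins KRT7, KRT8, KRT18 and KRT19 were high, with KRT18 at a mean of 3325, 3154 and 3640 in docetaxel-resistant, paclitaxel-resistant and sensitive cells. EPCAM, an epithelial adhesion molecule, was at 14.8, 14.3 and 22.1 in the same order, and the progesterone receptor gene PGR was at 8.68, 9.60 and 7.84, both near the low end of the scale. The summed level of 5 mesenchymal or basal-like markers moved with the groups, at 6394 to 6701 in docetaxel-resistant arrays, 7584 to 8281 in paclitaxel-resistant arrays and 10835 to 13153 in sensitive arrays. VIM, which encodes the filament protein vimentin, made up most of each sum. The part of these markers in the differences described below was not tested. The summed levels of 3 endothelial markers, at 53 to 60, 43 to 65 and 93 to 143 in the same groups, and of 6 fibroblast markers, at 268 to 316, 249 to 338 and 225 to 240, also moved, each mainly through 1 gene, PECAM1 and PDGFRB, and their part was not tested either. Of their defining markers VWF and LUM were near 0. The 5 blood markers measured summed to 497 to 561, 511 to 598 and 415 to 509, so the paclitaxel-resistant arrays lay above the sensitive ones; the part of these markers was not tested. HBB, a haemoglobin gene, made up most of each blood sum, at means of 412, 447 and 378 in docetaxel-resistant, paclitaxel-resistant and sensitive cells. The blood marker PTPRC did not exceed 11.64 in any array. Median intensity per array ran between 33.7 and 43.9, lowest in sensitive replicate 2, and 24.0% to 27.0% of probe sets read below 16. The 3′ minus 5′ log2 difference of the GAPDH control probe sets, a sign of RNA quality, was 0.0067 to 0.13 in docetaxel-resistant arrays, 0.094 to 0.20 in paclitaxel-resistant arrays and 0.014 to 0.039 in sensitive arrays, so the paclitaxel-resistant arrays lay above the sensitive ones; its part in the results was not tested. The same difference of the actin control, at -0.15 to -0.11, -0.13 to 0.17 and -0.26 to -0.02, overlapped between the groups.

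Promoter sequences are shown for 3 of the genes that the results turn on and that went different ways: DUSP1, higher in both resistant lines, DUSP6, lower in the docetaxel-resistant line alone of the resistant lines, and SPRY2, lower in both. Each is the 250 bases before the annotated start, 5′ to 3′ on the gene's own minus strand, from RefSeq on build GRCh38.p14. DUSP1 lies at chr5:172771196-172771445, DUSP6 at chr12:89352502-89352751 and SPRY2 at chr13:80341127-80341376. Capitals mark matches to the motifs searched on both strands. These were the cyclic AMP response element TGACGTCA, its shorter form TGACGTC, the ETS motif CCGGAA and the AP-1 site TGANTCA. The TATA box TATAAA and the CArG box of serum response factor were searched as well.
DUSP1: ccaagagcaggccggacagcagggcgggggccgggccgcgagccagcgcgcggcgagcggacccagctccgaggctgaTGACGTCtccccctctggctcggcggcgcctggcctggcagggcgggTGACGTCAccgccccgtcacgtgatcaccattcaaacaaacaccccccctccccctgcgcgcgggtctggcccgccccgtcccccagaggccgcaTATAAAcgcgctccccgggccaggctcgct
DUSP6: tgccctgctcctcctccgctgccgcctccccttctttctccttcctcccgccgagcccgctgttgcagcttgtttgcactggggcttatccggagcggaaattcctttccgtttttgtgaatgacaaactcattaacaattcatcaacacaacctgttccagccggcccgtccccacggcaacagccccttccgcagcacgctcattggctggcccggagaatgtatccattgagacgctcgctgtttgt
SPRY2: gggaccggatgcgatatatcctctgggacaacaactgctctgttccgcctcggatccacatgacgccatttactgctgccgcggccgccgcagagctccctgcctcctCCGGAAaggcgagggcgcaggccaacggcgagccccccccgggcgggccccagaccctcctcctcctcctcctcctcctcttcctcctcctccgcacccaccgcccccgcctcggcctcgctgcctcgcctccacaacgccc
The DUSP1 window held TGACGTCA at bases 125 to 118 before the start, a further TGACGTC at 172 to 166, and TATAAA at 30 to 25. TGACGTCA was found in 1.65% of 35116 promoter windows of the same length, TGACGTC, which overlaps it, in 3.12%, and TATAAA in 10.7%. The SPRY2 window held CCGGAA at 142 to 137, a motif found in 14.5% of all windows. The DUSP6 window held none of the motifs as searched, and shorter forms of the ETS motif were not searched. TGANTCA, in 6.57% of all windows, and the CArG box, in 1.16%, were not in these 3 windows. Bases G and C made up 74.4%, 57.2% and 70.4% of the DUSP1, DUSP6 and SPRY2 windows. A match is a run of letters and says nothing about binding in these cells. Of the 10 genes 6 matched an entry of the promoter table. Of the other 3 of these, SPRY1, SPRY4 and PHLDA1, PHLDA1 had the ETS motif on the opposite strand, TTCCGG, at 89 to 84 before its start. A second entry of SPRY1 had CCGGAA at 67 to 62.

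By each gene's highest-reading probe set, 5 of the 10 genes were past the threshold of the fit and lower in docetaxel-resistant than in sensitive cells, 1 was higher and 4 were not past it. In the paclitaxel-resistant line 3 were lower, 1 was higher and 6 were not past it. In the fit with 1 probe set per gene, 10.9% of all genes were called higher and 10.2% lower in the docetaxel-resistant line. In the paclitaxel-resistant line these shares were 10.9% and 10.7%, and between the resistant lines 0.995% and 0.995%. The counts of members are a description, and nothing is read from setting them beside these shares. DUSP4, DUSP6, SPRY1, SPRY2 and PHLDA1 were lower in the docetaxel-resistant line and DUSP1 was higher. In the paclitaxel-resistant line DUSP5, SPRY2 and PHLDA1 were lower and DUSP1 was higher, again by the highest-reading probe set. Other probe sets of DUSP1 and PHLDA1 did not all show this. DUSP4, DUSP6, SPRY1, SPRY4 and ETV4 were higher in the paclitaxel-resistant than in the docetaxel-resistant line, and DUSP5 was lower. Levels are the authors' deposited linear intensities, and differences are given on the scale of log2(intensity + 16) after quantile normalization, with the standard error (SE) from a limma fit to all 9 arrays. The intensity of one probe set cannot be set against that of another.

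**Figure D1:**
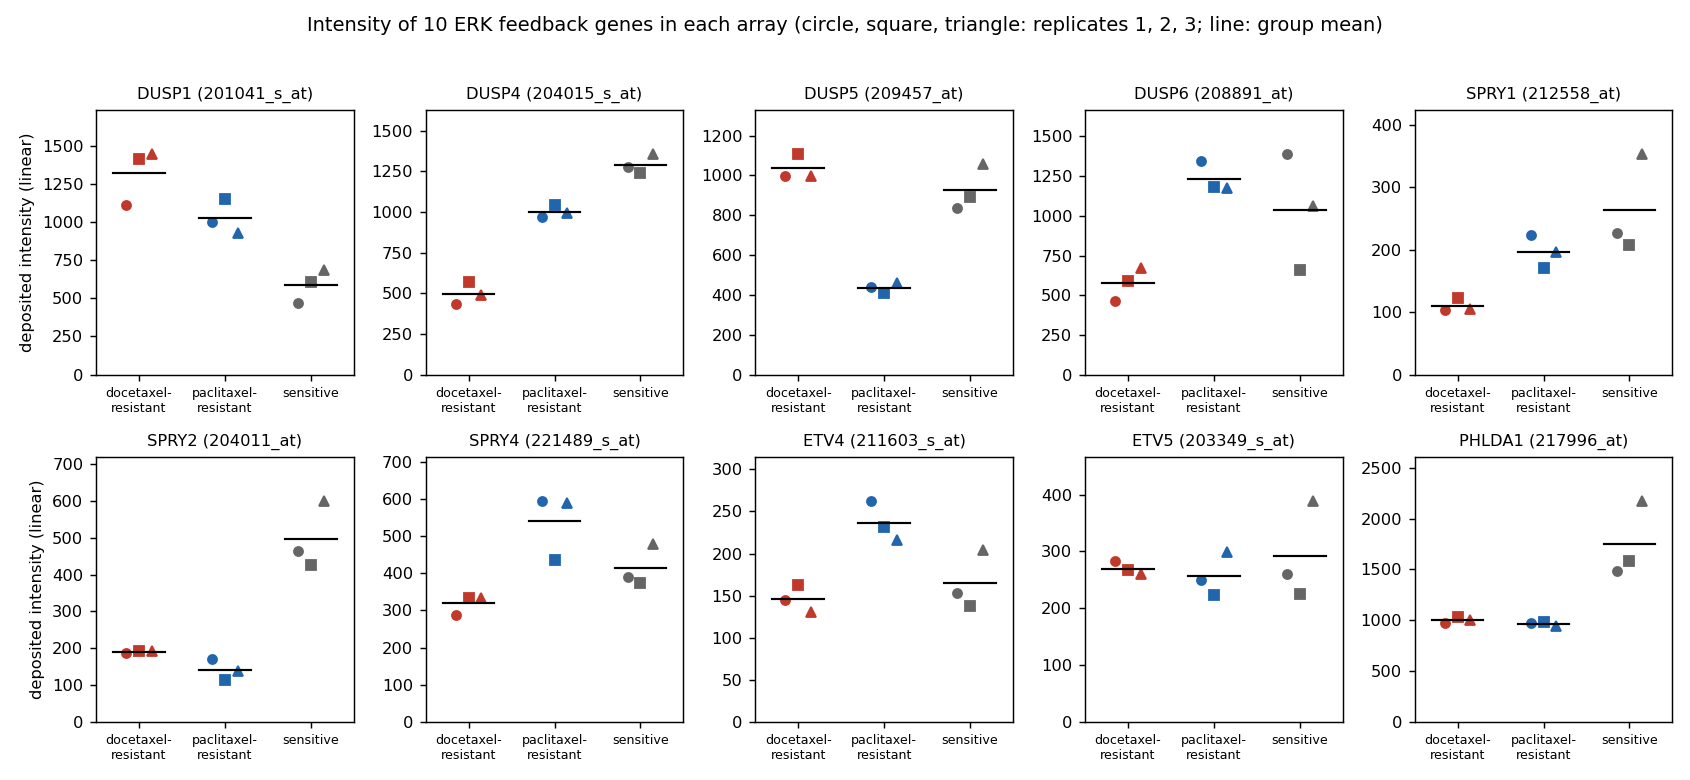
Deposited linear intensity (vertical axis, from 0) of the highest-reading probe set of each of the 10 genes in docetaxel-resistant, paclitaxel-resistant and sensitive arrays; circles, squares and triangles are replicates 1, 2 and 3 and the line is the group mean. DUSP4 and SPRY1 are lowest in the docetaxel-resistant arrays, DUSP5 is lowest in the paclitaxel-resistant arrays, and SPRY2 and PHLDA1 are highest in the sensitive arrays.

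DUSP6 encodes a cytoplasmic phosphatase that acts selectively on ERK and is widely used as a readout of ERK output. Its probe set 208891_at read 462, 592 and 672 in docetaxel-resistant arrays, 1343, 1184 and 1178 in paclitaxel-resistant arrays, and 1390, 662 and 1065 in sensitive arrays. Sensitive replicate 2 stood far below the other sensitive arrays and, on the deposited scale, within the docetaxel-resistant range, so these groups overlapped there by 1 array; after quantile normalization they did not. The means were 575 ± 106, 1235 ± 93.6 and 1039 ± 365 (SD, n = 3 each). The docetaxel-resistant line lay below sensitive cells by a log2 difference of -0.89 ± 0.18 (SE), and -1.09 without sensitive replicate 2. The paclitaxel-resistant line differed from sensitive cells by 0.27 ± 0.18, with overlapping arrays and a 95% interval from -0.12 to 0.66, and by 0.07 without sensitive replicate 2, so the sensitive and paclitaxel-resistant levels did not differ beyond their spread. Between the resistant lines the difference was 1.16 ± 0.18, higher in the paclitaxel-resistant line, and no array of one line reached the other.

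Both other DUSP6 probe sets gave the same order. Probe set 208892_s_at read 279.96, 339.8 and 358 in docetaxel-resistant arrays, 779, 663 and 697 in paclitaxel-resistant arrays, and 764, 425 and 737 in sensitive arrays. Probe set 208893_s_at read 152, 174 and 179 in docetaxel-resistant arrays, 469, 422 and 371 in paclitaxel-resistant arrays, and 550.0, 239 and 457 in sensitive arrays. In both probe sets, sensitive replicate 2 was again the lowest sensitive array, but it stayed above every docetaxel-resistant array. Their differences from sensitive cells were -1.01 and -1.29 in the docetaxel-resistant line and 0.18 and 0.07 in the paclitaxel-resistant line. All 3 probe sets of the gene share the same RNA and are not independent of each other.

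DUSP4, an inducible nuclear phosphatase of ERK, JNK and p38, read 437, 568 and 493 in docetaxel-resistant arrays, 972, 1043 and 993 in paclitaxel-resistant arrays, and 1277, 1242 and 1358 in sensitive arrays on probe set 204015_s_at. The groups were fully apart in this order, and each group was tight, with SDs of 65.6, 36.4 and 59.7. The log2 difference from sensitive cells was -1.43 ± 0.14 in the docetaxel-resistant line and -0.37 ± 0.14 in the paclitaxel-resistant line. The paclitaxel-resistant line stood 1.06 ± 0.14 above the docetaxel-resistant line. The second probe set, 204014_at, read 353, 372 and 422 in docetaxel-resistant arrays, 902, 735 and 779.9 in paclitaxel-resistant arrays, and 733, 619 and 847 in sensitive arrays. It placed the docetaxel-resistant line low as well, at -1.001 ± 0.13, but the paclitaxel-resistant line at 0.11 ± 0.13 with arrays that overlapped the sensitive ones, so the direction of DUSP4 between paclitaxel-resistant and sensitive cells depended on the probe set.

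DUSP5 encodes a nuclear phosphatase specific for ERK, and it ran the other way from DUSP4 and DUSP6 between the resistant lines. Its single probe set read 998, 1108 and 999 in docetaxel-resistant arrays, 438, 409 and 461 in paclitaxel-resistant arrays, and 835, 890 and 1057 in sensitive arrays. The paclitaxel-resistant arrays were all below the rest, while docetaxel-resistant and sensitive arrays overlapped. The difference from sensitive cells was 0.09 ± 0.16 in the docetaxel-resistant line, with a 95% interval from -0.25 to 0.43, and -1.07 ± 0.16 in the paclitaxel-resistant line. The paclitaxel-resistant line lay -1.16 ± 0.16 from the docetaxel-resistant line.

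DUSP1, a nuclear phosphatase induced by growth factors and by stress that acts on p38 and JNK as well as ERK, was the one gene of the family whose highest-reading probe set was higher in both resistant lines with no overlap. It read 1111, 1412 and 1447 in docetaxel-resistant arrays, 999, 1149 and 929 in paclitaxel-resistant arrays, and 466, 604 and 687 in sensitive arrays. All 6 resistant arrays exceeded the sensitive ones, and the resistant lines overlapped each other. The differences were 1.09 ± 0.19 in the docetaxel-resistant line and 0.78 ± 0.19 in the paclitaxel-resistant line. The resistant lines differed by -0.30 ± 0.19. A second, dim probe set, 201044_x_at, read 59.8, 55.7 and 61.2 in docetaxel-resistant arrays, 31.1, 51.8 and 20.03 in paclitaxel-resistant arrays, and 18.2, 29.4 and 25.5 in sensitive arrays. It was higher in the docetaxel-resistant line, by 0.77 ± 0.22, and overlapped between paclitaxel-resistant and sensitive cells, with a difference of 0.22 ± 0.22.

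The Sprouty genes encode membrane-associated inhibitors that are themselves targets of the pathway. SPRY2 had the widest range of group means of the 10 genes, 1.72 on the log2 scale. It read 186, 192 and 192 in docetaxel-resistant arrays, 171, 113 and 138 in paclitaxel-resistant arrays, and 463, 425 and 600.0 in sensitive arrays. Both resistant lines lay far below every sensitive array, and the paclitaxel-resistant arrays were also all below the docetaxel-resistant ones. The differences from sensitive cells were -1.43 ± 0.15 and -1.72 ± 0.15 in the docetaxel- and paclitaxel-resistant lines, and the paclitaxel-resistant line differed from the docetaxel-resistant line by -0.30 ± 0.15.

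SPRY1 read 103, 122 and 105 in docetaxel-resistant arrays, 224, 171 and 196 in paclitaxel-resistant arrays, and 227, 208 and 354 in sensitive arrays. The docetaxel-resistant arrays were below all others. Paclitaxel-resistant replicate 1 exceeded sensitive replicate 2 on the deposited scale, although the groups came apart after quantile normalization. The differences were -1.28 ± 0.17 for docetaxel-resistant against sensitive cells, -0.38 ± 0.17 for paclitaxel-resistant against sensitive cells and 0.89 ± 0.17 for paclitaxel-resistant against docetaxel-resistant cells.

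SPRY4 read 288, 334 and 335 in docetaxel-resistant arrays, 596, 436 and 591 in paclitaxel-resistant arrays, and 390, 373 and 479 in sensitive arrays. The docetaxel-resistant arrays were all below the sensitive ones, and the paclitaxel-resistant arrays overlapped them. Set against sensitive cells, the difference was -0.47 ± 0.15 in the docetaxel-resistant line and 0.35 ± 0.15 in the paclitaxel-resistant line, and between the lines, paclitaxel- minus docetaxel-resistant, it was 0.82 ± 0.15. Of the Sprouty genes, SPRY4 was not past the threshold in the docetaxel-resistant line, and neither SPRY1 nor SPRY4 was in the paclitaxel-resistant line.

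ETV4 read 145, 163 and 131 in docetaxel-resistant arrays, 263, 232 and 216 in paclitaxel-resistant arrays, and 153, 138 and 204 in sensitive arrays. The paclitaxel-resistant arrays were above all others, and the docetaxel-resistant and sensitive arrays overlapped. The differences were -0.32 ± 0.15 for the docetaxel-resistant line, 0.45 ± 0.15 for the paclitaxel-resistant line and 0.76 ± 0.15 between the resistant lines. ETV5, its closest relative here, read 282, 267 and 260.1 in docetaxel-resistant arrays, 249, 223 and 300 in paclitaxel-resistant arrays, and 260.1, 225 and 389 in sensitive arrays on probe set 203349_s_at. Its groups overlapped, with 95% intervals of the difference from sensitive cells from -0.62 to 0.20 in the docetaxel-resistant line and -0.59 to 0.23 in the paclitaxel-resistant line, and its range of group means was the narrowest of the 10 genes at 0.21. The other ETV5 probe sets were lower in both resistant lines by small amounts, at -0.41 and -0.45 in the docetaxel-resistant line and -0.39 and -0.35 in the paclitaxel-resistant line, with SEs of 0.16 and 0.17, and put the resistant lines within 0.10 of each other.

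PHLDA1 encodes a pleckstrin homology-like domain protein induced by growth factors and by stress. Its 5 probe sets did not go one way. The highest-reading, 217996_at, read 973, 1036 and 1000.1 in docetaxel-resistant arrays, 971, 980.5 and 940.1 in paclitaxel-resistant arrays, and 1486, 1580.3 and 2176 in sensitive arrays. Both resistant lines were below the sensitive one with no overlap and close to each other, with differences from sensitive cells of -0.81 ± 0.16 in the docetaxel-resistant line and -0.82 ± 0.16 in the paclitaxel-resistant line. Between the resistant lines the difference was -0.01 ± 0.16, with a 95% interval from -0.36 to 0.35. Probe sets 218000_s_at and 217997_at pointed the same way, at -1.21 ± 0.26 and -0.76 ± 0.21 for the docetaxel-resistant line and -1.22 ± 0.26 and -1.01 ± 0.21 for the paclitaxel-resistant line. The remaining pair pointed the other way. Probe set 217998_at read 207, 173 and 224 in docetaxel-resistant arrays, 212, 191 and 255 in paclitaxel-resistant arrays, and 76.6, 132 and 175 in sensitive arrays. Probe set 217999_s_at read 155, 137 and 206 in docetaxel-resistant arrays, 224, 197 and 232 in paclitaxel-resistant arrays, and 109, 99.9 and 166 in sensitive arrays. Their differences were 0.47 ± 0.24 and 0.20 ± 0.16 in the docetaxel-resistant line and 0.70 ± 0.24 and 0.70 ± 0.16 in the paclitaxel-resistant line. On both, the paclitaxel-resistant arrays were all above the sensitive ones, and 217999_s_at was past the threshold of the fit there. The direction of PHLDA1 in these arrays therefore depends on the probe set, and which transcripts each detects was not tested.

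**Figure D2:**
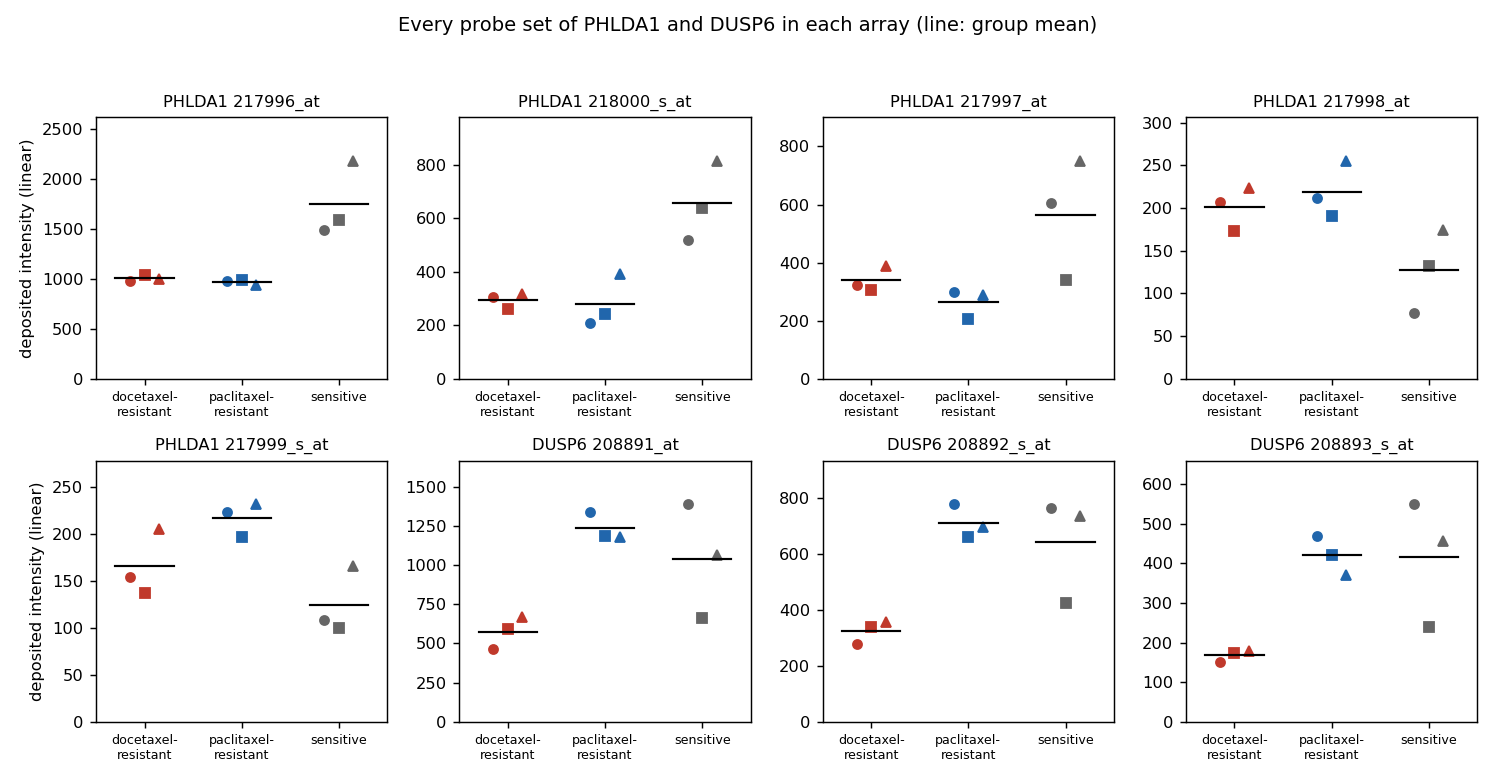
Deposited linear intensity (vertical axis, from 0) of all 5 PHLDA1 and all 3 DUSP6 probe sets in each array, with docetaxel-resistant, paclitaxel-resistant and sensitive arrays from left to right; symbols are the 3 replicates and the line is the group mean. Of the PHLDA1 probe sets 3 have their highest mean in sensitive arrays and 2 their lowest, while the 3 DUSP6 probe sets share 1 pattern.

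The passages differed most in the sensitive line. The SD of the normalized log2 values was widest in sensitive arrays for 14 of the 20 probe sets, in paclitaxel-resistant arrays for 5 and in docetaxel-resistant arrays for 1, with medians of 0.14 in docetaxel-resistant, 0.14 in paclitaxel-resistant and 0.29 in sensitive arrays. Over all human probe sets these medians were 0.15, 0.18 and 0.20. Of the sensitive arrays, replicate 3 gave the highest normalized value in 15 of the 20 probe sets and replicate 1 the lowest in 16. DUSP6 went otherwise: its sensitive replicate 2 was the lowest in each of its 3 probe sets, and replicate 1 the highest in 208891_at and 208893_s_at. Leaving out 1 array kept the docetaxel difference of DUSP1 at or above 0.86, of DUSP4 between -1.51 and -1.38, of SPRY1 between -1.41 and -1.10 and of SPRY2 between -1.53 and -1.31. In the paclitaxel-resistant line DUSP5 stayed between -1.22 and -0.97 and SPRY2 between -1.82 and -1.61.

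Counted over all 20 probe sets, 12 were past the threshold of the fit, an adjusted p below 0.05, in docetaxel-resistant against sensitive cells, 2 of them higher and 10 lower, where 17.7% of all human probe sets were called. In 15 the docetaxel-resistant and sensitive arrays did not overlap after normalization, against 34.2% of all probe sets. In paclitaxel-resistant against sensitive cells 7 were called, 2 higher and 5 lower, where 18.6% of all probe sets were called, and 12 did not overlap, against 32.1%. Between the paclitaxel- and docetaxel-resistant lines 9 were called, 8 higher in the paclitaxel-resistant line and 1 lower, where 1.60% of all probe sets were called, and 11 did not overlap, against 19.3%. The genes were chosen with these differences known, so these counts describe the members, test nothing, and nothing is read from setting them beside the shares of all probe sets. The median difference over the 20 probe sets was -0.61, -0.06 and 0.16 in the 3 comparisons, beside -0.05, -0.03 and 0.01 over all human probe sets. The comparisons with sensitive cells share the same 3 sensitive arrays, so their values stand side by side and are not independent.

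**Figure D3:**
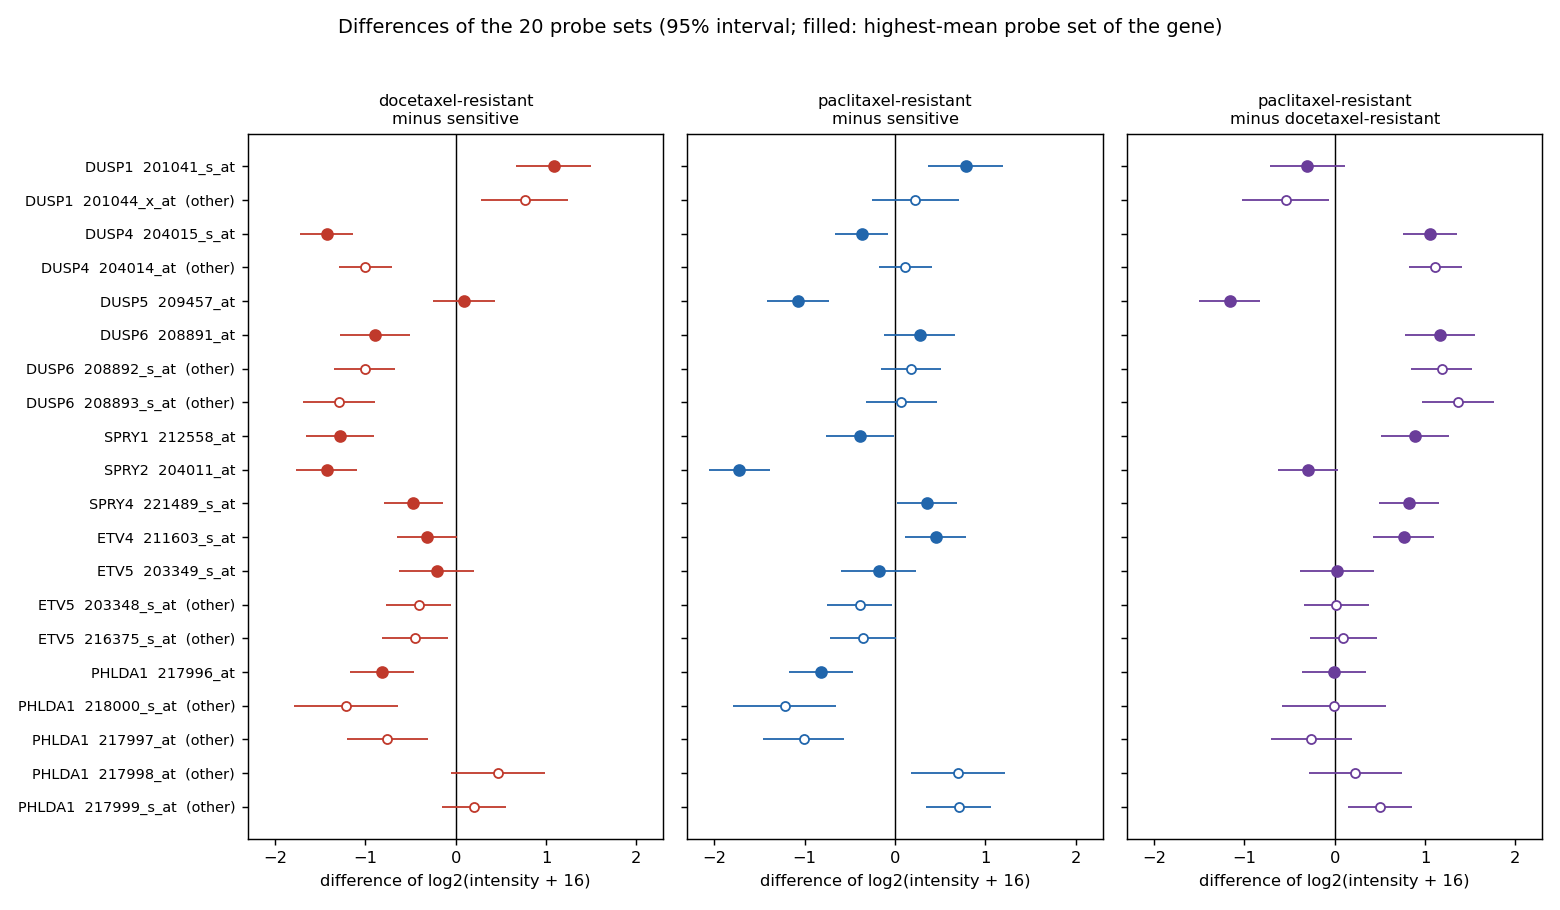
Difference of log2(intensity + 16) (horizontal axis) of the 20 probe sets with its 95% interval, for the docetaxel-resistant line against sensitive cells, the paclitaxel-resistant line against sensitive cells and the paclitaxel- against the docetaxel-resistant line; filled points are the highest-reading probe set of a gene and open points its others. DUSP4, DUSP6 and SPRY1 lie left of 0 in the first panel and right of 0 in the third, and DUSP5 lies near 0 in the first panel and left of 0 in the others.

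The genes whose pattern over the 9 arrays was most like that of DUSP6, by the root mean square difference of log2 values after centring each gene, were SERPINB1 at 0.21, CCNA1 at 0.24 and NRG1 at 0.24. SERPINB1, an inhibitor of neutrophil proteases, averaged 102 in docetaxel-resistant, 181 in paclitaxel-resistant and 165 in sensitive cells. CCNA1, which encodes cyclin A1, averaged 36.4, 87.0 and 50.1, and NRG1 encodes neuregulin, a ligand of ERBB receptors, which averaged 48.8, 102 and 125 in the same groups. The genes nearest to SPRY2 were EFNB2 at 0.13, EDNRB at 0.13 and ARHGAP22 at 0.14. EFNB2, the membrane-bound ligand ephrin-B2, averaged 61.2 in docetaxel-resistant, 50.6 in paclitaxel-resistant and 171 in sensitive cells, and EDNRB, an endothelin receptor, 36.7, 31.3 and 131. These are the closest of 11963 genes in 9 arrays, a description with no test.

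Other genes of the pathway were followed in 7 lists of 148 genes, of which 129 had a probe set of their own. In docetaxel-resistant against sensitive cells 14 of the 129 rose and 22 fell, and 93 did not pass the test; over all genes 10.9% rose and 10.2% fell. In paclitaxel-resistant against sensitive cells 21 rose and 30 fell, and 78 did not pass, where over all genes 10.9% rose and 10.7% fell. These counts moved with single arrays: in the docetaxel comparison 10 rose and 14 fell without docetaxel-resistant replicate 3, and in the paclitaxel comparison 12 rose and 25 fell without paclitaxel-resistant replicate 2. Between the paclitaxel- and docetaxel-resistant lines the limma test called 0 higher and 2 lower, where over all genes 0.995% rose and 0.995% fell; at an unadjusted p below 0.05 there were 10 higher and 13 lower. Without sensitive replicate 3 the calls were 2 higher and 0 lower, so the direction of this small count turned. The 2 were GPRC5A, a retinoic acid-induced receptor, at -0.72 ± 0.16 (limma adjusted p = 0.042), and MAPK13, a p38 kinase, at -0.66 ± 0.15 (limma adjusted p = 0.042). GPRC5A read 189, 242 and 225 in paclitaxel-resistant arrays and 348, 433 and 406 in docetaxel-resistant arrays, and a second probe set of it differed by -0.67. Leaving out any 1 of the 6 resistant arrays ended the GPRC5A call, with adjusted p up to 0.17, and so did leaving out sensitive replicate 3. The MAPK13 call was lost with adjusted p up to 0.18 when docetaxel-resistant replicate 2 or 3, any paclitaxel-resistant replicate, or sensitive replicate 1 or 3 was left out.

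**Figure D4:**
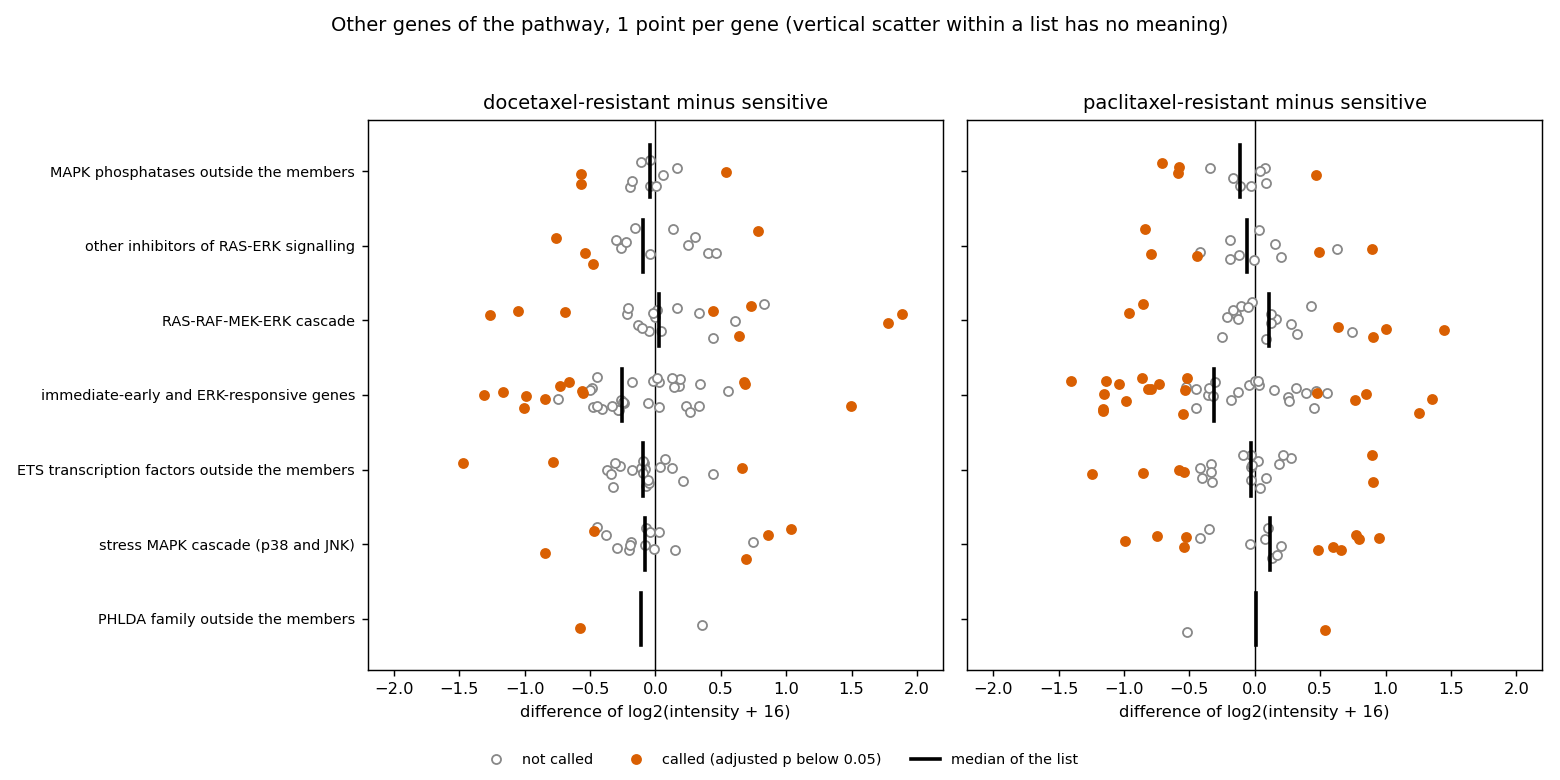
Difference of log2(intensity + 16) (horizontal axis) of the 129 measured genes of 7 lists of the pathway, 1 point per gene, for each resistant line minus sensitive cells, docetaxel on the left; orange points passed the test and black bars are list medians. Each list of more than 2 genes has called genes on both sides of 0, and the bar of the immediate-early list lies at -0.26 and -0.31.

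Of 11 other phosphatases of MAP kinases, 1 rose and 2 fell in the docetaxel-resistant line, and 1 rose and 3 fell in the paclitaxel-resistant line. DUSP14, a small MAP kinase phosphatase, rose, by 0.54 ± 0.14 (limma adjusted p = 0.018) in the docetaxel-resistant line and 0.47 ± 0.14 (limma adjusted p = 0.034) in the paclitaxel-resistant line. DUSP22, which acts in JNK signalling, fell in both, with differences of -0.57 ± 0.15 and -0.71 ± 0.15 (limma adjusted p = 0.022 and 0.0065). DUSP10, which acts on p38 and JNK, fell in both as well, with differences of -0.57 ± 0.16 and -0.59 ± 0.16 (limma adjusted p = 0.025 and 0.021). The list's medians were -0.04 and -0.11, beside -0.05 and -0.02 over all genes. Leaving out 1 array ended 5 of these 6 named calls. DUSP14 lost its call without docetaxel-resistant replicate 1 or 2 or sensitive replicate 3 in the docetaxel comparison, with adjusted p up to 0.071, and in the paclitaxel comparison without docetaxel-resistant replicate 2, paclitaxel-resistant replicate 1 or 2, or sensitive replicate 1 or 3, with adjusted p up to 0.12 over all settings. DUSP22 lost its docetaxel call without docetaxel-resistant replicate 1 or 3 or sensitive replicate 2 or 3, with p up to 0.13 over all settings. DUSP10 lost its docetaxel call without docetaxel-resistant replicate 3 or sensitive replicate 3, with p up to 0.17 over all settings, and its paclitaxel call without paclitaxel-resistant replicate 1 or 3 or sensitive replicate 3, with p up to 0.097.

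Of 14 other inhibitors of RAS-ERK signalling, 1 rose and 3 fell in the docetaxel-resistant line, and 2 rose and 3 fell in the paclitaxel-resistant line. PEBP1, which binds RAF and keeps it from MEK, read 905, 1031 and 955 in docetaxel-resistant arrays, 939.6, 833 and 966 in paclitaxel-resistant arrays, and 1794, 1208 and 1793 in sensitive arrays. All sensitive arrays were above the resistant ones, and PEBP1 fell by 0.76 ± 0.15 in the docetaxel-resistant line (limma adjusted p = 0.0033), and fell by 0.79 ± 0.15 in the paclitaxel-resistant line (limma adjusted p = 0.0025). SPRED2, a relative of the Sprouty proteins that inhibits RAS, read 345, 370 and 396 in paclitaxel-resistant arrays and 185, 139 and 246 in sensitive arrays, and rose by 0.90 ± 0.16 (limma adjusted p = 0.0018). Its dimmer probe sets differed by 0.08 and 0.05, so this rise rests on the highest-reading one. LRIG1, a membrane protein that lowers ERBB receptors, fell by 0.84 ± 0.14 in the paclitaxel-resistant line (limma adjusted p = 0.0014), and fell by 0.54 ± 0.14 in the docetaxel-resistant line (limma adjusted p = 0.017), a docetaxel call that was lost without docetaxel-resistant replicate 1 or 3 or sensitive replicate 3, with p up to 0.21 over all settings.

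The cascade itself gave 22 measured genes. In the docetaxel-resistant line 5 rose and 3 fell, with a list median of 0.03, and in the paclitaxel-resistant line 4 rose and 2 fell, with a list median of 0.11. RPS6KA3, a kinase directly activated by ERK, rose by 1.78 ± 0.19 in the docetaxel-resistant line (limma adjusted p = 9.2e-05) and by 1.00 ± 0.19 in the paclitaxel-resistant line (limma adjusted p = 0.0031). It read 96.8, 100.1 and 183 in docetaxel-resistant arrays, 76.1, 56.7 and 48.3 in paclitaxel-resistant arrays, and 16.8, 18.6 and 27.0 in sensitive arrays, which are near the pseudocount. The adaptor SHC1 rose by 0.64 ± 0.13 and 0.90 ± 0.13 in the docetaxel- and paclitaxel-resistant lines (limma adjusted p = 0.0059 and 0.00074). ARAF, a RAF kinase, read 127, 179 and 127 in docetaxel-resistant arrays, 160.1, 168 and 202 in paclitaxel-resistant arrays, and 292, 304 and 389 in sensitive arrays. It fell in both lines, with differences of -1.26 ± 0.19 and -0.86 ± 0.19 (limma adjusted p = 0.00092 and 0.0083), as did MKNK1, a kinase downstream of ERK, at -1.05 ± 0.17 and -0.96 ± 0.17 (limma adjusted p = 0.0012 and 0.0017). Of the MEK genes in the docetaxel-resistant line, MAP2K2 fell by 0.69 ± 0.13 (limma adjusted p = 0.0032) and MAP2K1 rose by 0.44 ± 0.13 (limma adjusted p = 0.031). The MAP2K1 call was lost without any 1 docetaxel-resistant replicate or sensitive replicate 1 or 2, with p up to 0.096 over all settings. MAPK3, which encodes an ERK kinase, differed by 0.04 ± 0.13 and 0.13 ± 0.13 and passed no test.

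Immediate-early and other ERK-responsive genes formed the largest list, with 40 measured. In the docetaxel-resistant line 3 rose and 9 fell, with a list median of -0.26, and in the paclitaxel-resistant line 5 rose and 14 fell, with a list median of -0.31, beside all-gene medians of -0.05 and -0.02. JUN, a subunit of the AP-1 transcription factor, fell by 1.00 ± 0.16 in the docetaxel-resistant line (limma adjusted p = 0.0011), and fell by 1.15 ± 0.16 in the paclitaxel-resistant line (limma adjusted p = 0.00041). Also lower in both lines were FOSL2, another AP-1 subunit, at -0.99 ± 0.14 and -1.04 ± 0.14 (limma adjusted p = 0.00061 and 0.00044), and KLF4, a zinc-finger factor, at -1.16 ± 0.18 and -1.14 ± 0.18 (limma adjusted p = 0.00084 and 0.00093). JUN read 206, 275 and 294 in docetaxel-resistant arrays, 199.8, 228 and 207 in paclitaxel-resistant arrays, and 463, 437 and 578 in sensitive arrays, with no overlap between either resistant line and the sensitive one. TFPI2, a protease inhibitor, fell as well, at -1.31 ± 0.18 and -1.40 ± 0.18 (limma adjusted p = 0.00046 and 0.00029), and GPRC5A fell by 1.16 ± 0.16 in the paclitaxel-resistant line (limma adjusted p = 0.00040). IER3, an early-response survival gene, fell by 0.84 ± 0.15 in the docetaxel-resistant line (limma adjusted p = 0.0026), and fell by 0.55 ± 0.15 in the paclitaxel-resistant line (limma adjusted p = 0.025), a paclitaxel call lost without paclitaxel-resistant replicate 2 or sensitive replicate 2 or 3, with p up to 0.093.

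Against that direction went the 3 genes of this list that rose in the docetaxel-resistant line and the 5 in the paclitaxel-resistant line. CCN1, a matrix protein induced by serum, was among them in both lines. It read 4832, 5259 and 5001 in docetaxel-resistant arrays, 3999.8, 5407 and 4255 in paclitaxel-resistant arrays, and 1602, 1833 and 1959 in sensitive arrays. Every resistant array was above every sensitive one, and CCN1 rose by 1.49 ± 0.16 in the docetaxel-resistant line (limma adjusted p = 9.3e-05) and 1.35 ± 0.16 in the paclitaxel-resistant line (limma adjusted p = 0.00016). FOS, EGR1, MYC and CCND1 passed no test: FOS differed by -0.28 ± 0.20 and -0.18 ± 0.20 in the docetaxel- and paclitaxel-resistant lines, EGR1 by -0.06 ± 0.27 and 0.25 ± 0.27, MYC by 0.34 ± 0.18 and 0.03 ± 0.18, and CCND1, which encodes cyclin D1, by 0.03 ± 0.13 and 0.32 ± 0.13. FOSL1, an AP-1 subunit stabilized by ERK, differed by -0.74 ± 0.24 in the docetaxel-resistant line (limma adjusted p = 0.051) and by -0.36 ± 0.24 in the paclitaxel-resistant line.

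Among 22 other ETS factors, 1 rose and 2 fell in the docetaxel-resistant line, and 2 rose and 4 fell in the paclitaxel-resistant line, with list medians of -0.09 and -0.03. ELK1, an ETS factor that ERK phosphorylates directly, read 149, 163 and 147 in docetaxel-resistant arrays, 183, 131 and 187 in paclitaxel-resistant arrays, and 371, 376 and 491 in sensitive arrays. It fell in both lines, with differences of -1.47 ± 0.17 and -1.24 ± 0.17 (limma adjusted p = 0.00014 and 0.00041), as did ETS1, at -0.78 ± 0.14 and -0.85 ± 0.14 (limma adjusted p = 0.0020 and 0.0011). ETV1, the third factor of the PEA3 group beside ETV4 and ETV5, rose in the paclitaxel-resistant line by 0.90 ± 0.20 (limma adjusted p = 0.0079). Its other probe sets differed by -0.08 to 0.34, and with the mean of all its probe sets the difference was 0.24 (limma adjusted p = 0.25).

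In the stress kinase cascades of p38 and JNK, 3 of 18 measured genes rose and 2 fell in the docetaxel-resistant line, and 6 rose and 4 fell in the paclitaxel-resistant line. MAPK9, a JNK kinase, rose in the docetaxel-resistant line by 1.04 ± 0.22 (limma adjusted p = 0.0059). MAP3K7, which activates both cascades, rose there by 0.86 ± 0.18 (limma adjusted p = 0.0056), and its other probe sets differed by 0.12, 0.83 and 0.87. Paclitaxel-resistant arrays also read above the sensitive ones, MAPK9 at 239, 196 and 165 against 132, 54.5 and 152, and MAP3K7 at 99.5, 103.5 and 79.3 against 62.7, 43.8 and 44.6. GADD45A, a stress gene that binds a kinase of these cascades, fell by 0.85 ± 0.16 in the docetaxel-resistant line (limma adjusted p = 0.0030). In the paclitaxel-resistant line MAPKAPK3, a kinase downstream of p38, fell by 0.99 ± 0.15 (limma adjusted p = 0.00089) and MAPK13 fell by 0.74 ± 0.15 (limma adjusted p = 0.0037). MAPKAPK3 also read below the sensitive arrays in the docetaxel-resistant ones, at 243, 315 and 278 against 413, 340 and 324. It was called lower there too, but this call was lost in 14 settings, with limma adjusted p up to 0.19. Among them were leaving out any 1 docetaxel-resistant replicate and a median shift in place of quantile normalization. The 2 relatives of PHLDA1 gave 1 call each: PHLDA3 fell by 0.57 ± 0.17 in the docetaxel-resistant line (limma adjusted p = 0.036) and PHLDA2 rose in the paclitaxel-resistant line by 0.54 ± 0.14 (limma adjusted p = 0.017). The PHLDA3 call was lost without any 1 docetaxel-resistant replicate, paclitaxel-resistant replicate 2 or 3, or sensitive replicate 2 or 3, with p up to 0.14 over all settings. The PHLDA2 call was lost without paclitaxel-resistant replicate 1 or 3 or sensitive replicate 1, and a second, dim probe set of PHLDA2 differed by 0.07.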

How the data were processed

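Total RNA of 3 passages of each of 3 lines, 5 µg per array, was labelled with biotin and hybridized to 9 Affymetrix human arrays. The deposited values are linear intensities, 1 per probe set and array, made with PLIER and with Affymetrix Expression Console 1.1.2 per the submitters' processing notes. No background correction or normalization by the authors is given in the sources used here. Of 22283 probe sets 68 were controls. Probe sets were named from the platform annotation of 2016: 19065 named 1 gene, 1043 several and 2107 none, and 19053 matched the RefSeq gene table. Array medians of log2(intensity + 16) differed by 0.27, above the limit of 0.2, so arrays were quantile-normalized; the pseudocount understates differences of dim probe sets.

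All 22215 human probe sets, and 11963 genes by their highest-mean probe set, were fitted with limma 3.58.1 in R 4.3.3, with 3 group means and eBayes (6 residual degrees of freedom). P-values are two-sided, adjusted by Benjamini-Hochberg over all features within a comparison, and called below 0.05. A separate fit without any 1 array, other pseudocounts, normalizations and filters were run as alternatives. The fit was tested on simulated data with noise drawn separately for each probe set and array. Deviations that real arrays share were not part of that simulation. The members, the 7 lists and the rules were chosen with earlier results of these data known. Named were all members with every probe set and, of the lists, genes from among the 4 called ones per list and comparison with the smallest adjusted p (some of these, among them DUSP7 and IQGAP1, were left unnamed in the results for length after their values were seen, and are counted there) and from a set of core pathway genes, and the 3 genes most like DUSP6 and the member of widest range. Some genes of the pathway are not reported here. No pair of arrays had the same value in more than 0.234% of probe sets, so no array was counted as a duplicate. Precision is limited by the number of arrays, and the median SE of a difference was 0.16 on the log2 scale.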

Additional observations from a re-analysis of the deposited data

How the results depend on the processing

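Of 495 member differences recomputed under the alternatives, 492 moved by less than 1 SD of the replicates and no called member changed sign; the 3 that moved further were SPRY1 and SPRY2 in the docetaxel comparison and SPRY2 in the paclitaxel comparison, all still far below 0. ETV5 and PHLDA1 between the resistant lines, ETV5 in the paclitaxel comparison and DUSP5 in the docetaxel comparison lay near 0 and changed sign under some settings. Leaving out 1 array put DUSP6 in the docetaxel comparison between -1.09 and -0.73. With probe sets of the endings _x_at and _s_at left out, 8 of 20 member probe sets and 100 of 129 list genes were left: called members were then 6, 4 and 4 for the docetaxel, the paclitaxel and the between-line comparison, against 12, 7 and 9 with all probe sets, and called list genes 23, 32 and 0, against 36, 51 and 2. With those endings left out, 1721, 1828 and 131 of all 11813 probe sets kept were called in the same 3 comparisons. Between the lines, called members were 5 with a pseudocount of 1 and 5 with no further normalization, where 84 and 215 of all 22215 human probe sets were called. Called list genes there were 0 with a pseudocount of 1, 8 with a pseudocount of 64 (4 higher and 4 lower), 1 with no further normalization, 7 with the filter at the median level (3 higher and 4 lower) and 5 with a trended, robust variance estimate (1 higher and 4 lower), and leaving out 1 array gave between 0 and 4: 0 without docetaxel-resistant replicate 2 or 3 or any paclitaxel-resistant replicate, 1 without docetaxel-resistant replicate 1 and 4 without sensitive replicate 1; without sensitive replicate 3 both calls were higher. List genes in the docetaxel comparison, 14 higher and 22 lower, were 14 and 16 without sensitive replicate 3, 11 and 31 without sensitive replicate 1, and 12 and 14 with no further normalization. The titles number the replicates but do not say whether equal numbers pair the arrays, and the main fit did not pair them. Deviations of same-numbered arrays of different groups correlated between -0.45 and 0.34, and those of differently numbered arrays between -0.45 and 0.47. What the correlated arrays share was not tested. With the replicate block called members were 12, 7 and 7, and called list genes 34, 52 and 0. That block called 3596, 3821 and 214 of all 22215 human probe sets in the same order. Over all probe sets 356 were called between the lines, against 84 with a pseudocount of 1, 518 with 64, 214 with the replicate block and 111 to 421 when 1 array was left out, and the docetaxel count of 3922 was 2447 without docetaxel-resistant replicate 3. Of the values of list genes recomputed, which include genes the text does not name, 123 lost their call and 9 gained one under an alternative, and 1330 kept their side of the threshold and direction. Signal over background limits the dim probe sets, such as DUSP1 201044_x_at.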
